A study of Mus musculus with 95 samples.

Results

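The expression of mouse embryonic stem cells labelled Pcgf3/5/6-/- was compared with that of wild-type cells. The comparison used 4 of the 95 samples of the series, 2 RNA-seq libraries for each genotype, chosen by their column names in the table of gene counts. Of the 23377 genes in that table, 14107 had enough reads to be tested. Both groups are E14 cells, an embryonic stem cell line from a male mouse embryo, grown with leukaemia inhibitory factor and with inhibitors of GSK3β and MEK1/2, so the MEK inhibitor is common to both. The knockout lines came from isolated clones edited with Cas9, and both Pcgf3/5/6-/- libraries carry the name of 1 line. A property of that clone and an effect of its genotype cannot be told apart. Wild-type peaks came from 1 ChIP-seq list each for PCGF3, PCGF6, RING1B, USF1, SUZ12, H3K27me3 and H2AK119ub1. Those of the triple knockout came from 1 list each for RING1B, SUZ12, H3K27me3 and H2AK119ub1. Lists of PCGF6 peaks in Pcgf6-/- and of PCGF3 peaks in Pcgf3/5-/- served to check the wild-type lists. For later comparisons, a fit of all 14 RNA libraries covered 7 genotypes. These were wild-type, Pcgf3/5/6-/-, Pcgf6-/-, Pcgf3/5-/-, Pcgf1-/-, Pcgf2/4-/- and Pcgf1/2/4-/-.

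Polycomb repressive complex 1 (PRC1) is a ubiquitin ligase that marks histone H2A and is known for keeping developmental and germline genes silent in stem cells. Its catalytic subunit, RING1A or RING1B, pairs with a PCGF protein, and the PCGF protein decides which partners join. PCGF6 joins L3MBTL2 and the factors MGA, MAX and E2F6, which read DNA sequence, and is known for silencing germline genes. PCGF3 and PCGF5 join AUTS2, FBRS and casein kinase 2. SUZ12 belongs to a separate complex, PRC2, which writes H3K27me3.

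The sequences under the PCGF3 and PCGF6 peaks differ. The 6-base E-box CACGTG, which reads the same on both strands and is the motif of USF1 and of MAX dimers, lay within the 101 bases centred on the summit in 145 of 223 PCGF3 peaks (65.0%) and in 243 of 1868 PCGF6 peaks (13.0%). It lay in 68.4% of USF1 peaks, 3.54% of RING1B peaks and 2.71% of the 70358 windows of that length centred on annotated gene starts. The longer TCACGTGAC, which contains that E-box, was found in 29.1% of PCGF3 and 0.321% of PCGF6 peaks, against 0.385% of starts. The E2F motif TTCCCGC (either strand) was found in 4.04% of PCGF3 and 4.12% of PCGF6 peaks, against 1.99% of starts, and the T-box motif TCACACCT in 0% and 1.39%, against 0.297%. The first set of sequences below, 61 bases around the summit on the forward strand of NCBIM37, comes from PCGF3 peaks at genes that moved in opposite directions: Rbm46 and Cpeb1 rose, and Hoxa7, Frmd4b and Ankrd12 fell. The Rbm46 window (chr3:82680410-82680470) and the Ankrd12 window (chr17:66426502-66426562) lie outside the gene, with the summit 35 and 103 bases upstream of the nearest annotated start. Those of Cpeb1 (chr7:88598763-88598823), Hoxa7 (chr6:52167539-52167599) and Frmd4b (chr6:97347225-97347285) lie in introns. Capitals mark CACGTG. These genes were picked for their change, and 0610040J01Rik is not shown because its window overlaps an exon. The windows shown are not typical of direction: counted later over all PCGF3-bound genes tested, the E-box lay within the 101 summit bases at 6 of 10 genes raised at least 2-fold, 23 of 29 lowered that far and 114 of the other 150.
Rbm46: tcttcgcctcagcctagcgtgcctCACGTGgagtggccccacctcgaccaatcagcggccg
Cpeb1: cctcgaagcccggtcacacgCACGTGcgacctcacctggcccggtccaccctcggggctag
Hoxa7: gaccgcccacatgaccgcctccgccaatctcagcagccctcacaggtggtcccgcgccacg
Frmd4b: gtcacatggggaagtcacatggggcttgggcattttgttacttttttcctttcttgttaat
Ankrd12: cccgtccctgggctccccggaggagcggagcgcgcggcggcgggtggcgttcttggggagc

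The second set comes from PCGF6 peaks at germline genes that rose, and was chosen after their values were seen, to show a range of motif content. Mov10l1 (chr15:88813170-88813230), Tdrd9 (chr12:113209646-113209706) and Piwil2 (chr14:70829107-70829167) have the summit 139, 94 and 236 bases upstream of a start, outside the gene. The windows of Ddx4 (chr13:113442293-113442353) and Sycp2 (chr2:178141997-178142057) are intronic, 195 and 100 bases downstream of a start. Capitals mark CACGTG in Mov10l1 and Tdrd9 and the E2F motif, on the reverse strand, in Ddx4.
Mov10l1: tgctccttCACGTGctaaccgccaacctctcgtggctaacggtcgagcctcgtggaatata
Tdrd9: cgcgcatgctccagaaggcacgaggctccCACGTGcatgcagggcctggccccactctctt
Ddx4: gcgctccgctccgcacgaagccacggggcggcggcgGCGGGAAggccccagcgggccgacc
Piwil2: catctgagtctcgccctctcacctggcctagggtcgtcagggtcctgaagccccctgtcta
Sycp2: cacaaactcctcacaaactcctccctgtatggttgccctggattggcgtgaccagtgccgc

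The targeted transcripts were examined first, and none of the 3 was called changed. Levels are given as CPM, read counts divided by the library total after TMM scaling. Genes were tested by quasi-likelihood in edgeR, and p-values were adjusted over every gene tested by the Benjamini-Hochberg method, with a threshold of 0.05. Pcgf6 stood at 37.0 and 34.9 CPM in wild-type and at 42.9 and 38.2 CPM in the libraries labelled Pcgf3/5/6-/- (log2 fold change 0.17, SE 0.12, adjusted p = 0.174). In the Pcgf6-/- line of the same table it had 0 counts in both libraries. Pcgf5 had 13.3 and 11 CPM in wild-type and 16.8 and 13.9 CPM in the triple knockout (0.33, SE 0.20, adjusted p = 0.127), against 5.48 and 4.60 CPM in Pcgf3/5-/-. Pcgf3 had 16.8 and 15.8 CPM in wild-type and 13.9 CPM in both libraries labelled Pcgf3/5/6-/- (-0.22, SE 0.19, adjusted p = 0.278). Which exons were edited is not given in the sources used here, so reads outside the edited part neither support nor contradict the genotype. For this reason the group is called by its label. The terms "knockout libraries" and "triple knockout" below stand for the libraries so labelled, and every direction is theirs.

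Library totals were 6827571 and 6967931 counts in wild-type and 3120754 and 2912086 in Pcgf3/5/6-/-, and the 10 highest genes took 0.647% to 0.979% of them. Over the tested genes, the counts of the 2 wild-type libraries differed by less than sampling noise (chi-square per degree of freedom 0.950, p = 1.00), while those of Pcgf3/5/6-/- differed by more (1.17, p = 3.97e-42). The wild-type pair may therefore be 1 library, and it is given by its 2 values, with no SD. Beside the fit of the 4 libraries stands a fit of all 14 RNA libraries in which the wild-type pair was summed and counted as 1 sample. Genes named by rule were picked for large changes in the fit of the 4 libraries, and the fit of 14 libraries contains those libraries. Their passing in it is therefore no check on the wild-type pair. Nothing in the labels says that libraries of a group came from separate cultures, so p-values measure the spread between these libraries only. In the fit of the 4 libraries the spread beyond read sampling was small, with a common dispersion of 9.77e-05 (coefficient of variation 0.988%). Its SE and p-values therefore reflect little more than counting error.

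Expression was widely altered, and large changes were mostly increases. In the fit of the 4 libraries 5499 genes were raised (39.0%) and 5155 lowered (36.5%). With the wild-type pair counted as 1 in all 14 libraries, 3960 were raised and 3331 lowered of 15871 tested. Because so many genes pass at any size, the counts that follow are of genes that passed and changed at least 2-fold. These were 2679 raised (19.0%) and 1429 lowered (10.1%), so 65.2% of them were raised. The large increases sat among scarce transcripts: with genes divided by mean abundance into 4 bins of equal size, 50.4% of the lowest bin was raised at least 2-fold, against 19.5%, 5.08% and 1.05% of the higher bins. When a loess curve against abundance was taken out of each library's offsets, 1791 genes were raised and 1771 lowered at least 2-fold, and 50.3% were raised. The share of large changes that are increases thus depends on whether that trend is removed, and the part of library depth, which was lower in Pcgf3/5/6-/-, was not tested. In the authors' deposited table of this comparison, 2176 genes are marked up and 334 down, all at an absolute log2 fold change of at least 2. The 1928 of these that were tested here had the same sign in both.

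The largest increases were in imprinted and placental genes. Igf2, a fetal growth factor expressed from the paternal allele, had 0.583 and 1.15 CPM in wild-type and 279 and 281 CPM in the libraries labelled Pcgf3/5/6-/- (log2 fold change 7.79, SE 0.12, adjusted p = 3.00e-42, and 4.58e-09 with the wild-type pair counted as 1). It lies on chromosome 7 (149836673 to 149852721, NCBIM37), and its span overlaps Igf2as on the opposite strand. Reads from a stretch they share cannot be told apart, since the use of strand in counting is not stated. H19, the maternally expressed non-coding RNA beside it (149761434 to 149764048), rose from 0.875 and 0.716 to 205 and 224 CPM (7.49, SE 0.14, adjusted p = 1.87e-39). Both transcripts were near the detection floor in wild-type and among the strongly expressed genes in the knockout libraries. Krt7, a keratin of simple epithelia including trophoblast (chromosome 15, 101241474 to 101260744), rose from 0.875 and 0.573 to 220 and 219 CPM (7.61, SE 0.13, adjusted p = 3.92e-40). Plac1, an X-linked placental gene, rose from 0.583 and 1.00 to 147 and 157 CPM (6.98, SE 0.16). Nrk, an X-linked kinase of the placenta, rose from 0.875 and 0.859 to 150 CPM in both libraries (6.89, SE 0.15). Epn3, an epithelial endocytosis adaptor, had no count in wild-type and 59.6 and 48.9 CPM in the knockout libraries, at least 251-fold higher against a floor of 3 counts over the wild-type group. The knockout values of these 6 genes lay far above both wild-type values.

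**Figure D1:**
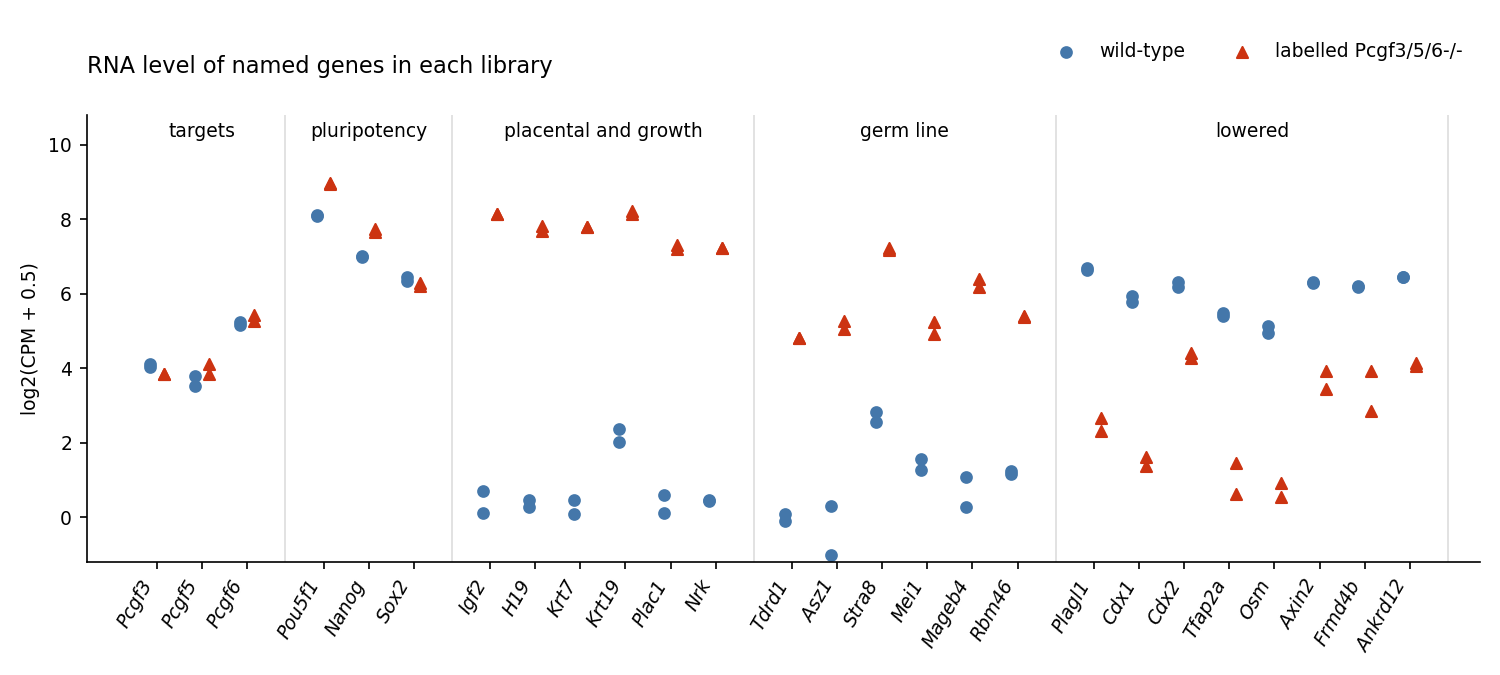
RNA level of named genes in each of the 4 libraries, as log2 of CPM plus 0.5 on the vertical axis, with circles for wild-type and triangles for the libraries labelled Pcgf3/5/6-/-. The 3 targeted genes overlap or nearly overlap between groups, while Igf2 goes from 0.583 and 1.15 CPM to 279 and 281 CPM and Plagl1 from 99.2 and 102 CPM to 4.51 and 5.90 CPM.

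Of 16 listed trophoblast genes, 15 were tested, 12 were raised and 3 lowered, all at least 2-fold, with a median log2 fold change of 3.14 against 0.02 over all genes tested. Of the 15, 5 passed the filter on low counts through the knockout libraries only and had to be higher there, so the count and the median describe the list and are no evidence of their own. The summed level of the list was 362 and 381 CPM in wild-type and 2335 and 2374 CPM in the knockout libraries. The members that fell are regulators of early trophoblast fate. Cdx2, a homeobox factor of the trophectoderm, went from 72.6 and 79.2 to 19.0 and 20.8 CPM (-1.91, SE 0.12, adjusted p = 2.33e-19). Tfap2a, an AP-2 factor, went from 41.7 and 44.5 to 2.26 and 1.04 CPM (-4.39, SE 0.24, adjusted p = 1.04e-20). Eomes, a T-box factor, went from 11.7 and 12.5 to 2.58 and 4.16 CPM (-1.74, SE 0.29, adjusted p = 6.93e-07). The raised members include the transcription factors Tfap2c (3.14), Gata3 (2.82), Hand1 (5.03) and Elf5 (4.36) and the placental gene Esx1 (5.56), given as log2 fold changes and with Eomes named after their values were seen. In bulk RNA, more cells of a type and more RNA per cell cannot be told apart.

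Epithelial and matrix genes were raised with them. Of 48 keratins counted, 21 were tested (13 through the knockout libraries only), and 17 were raised and 1 lowered at least 2-fold. Krt19, a keratin of simple epithelia, rose from 4.67 and 3.58 to 280 and 298 CPM (6.00, SE 0.10, adjusted p = 1.43e-41), while Krt10, a keratin of stratified epidermis, fell from 23.3 and 27.1 to 8.70 and 10.4 CPM (-1.37, SE 0.19). Of 14 tested claudins, the strand-forming proteins of tight junctions (6 through the knockout libraries only), 10 were raised and 0 lowered at least 2-fold. Cldn7 rose from 3.21 and 1.86 to 48.0 and 50.3 CPM (4.08, SE 0.20). Of 36 tested collagens and laminins (14 through the knockout libraries only), 23 were raised and 1 lowered at least 2-fold. Col6a1, a chain of collagen VI, had no count in wild-type and 24.2 and 15.6 CPM in the knockout libraries, at least 92.5-fold higher. The 1 lowered member was Lama1, a basement membrane laminin, with 74.2 and 67.3 CPM in wild-type and 27.4 and 33.0 CPM in the knockout (-1.22, SE 0.11). With loess offsets the counts raised at least 2-fold were lower, at 11 keratins, 6 claudins and 12 collagens and laminins.

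Markers of other lineages gave a mixed picture. Among 22 primitive endoderm genes 15 were tested (5 through the knockout libraries only), and 8 were raised and 2 lowered at least 2-fold. Dab2, an endocytic adaptor of visceral endoderm, had no count in wild-type and 41.6 and 52.1 CPM in the knockout libraries (at least 215-fold higher). Hnf4a, a nuclear receptor of visceral endoderm, fell from 21.7 and 18.2 to 3.54 and 3.12 CPM (-2.44, SE 0.26). The defining factors Gata4, Gata6 and Sox17, named after their values were seen, had no count in wild-type and 0.645 to 2.08 CPM in the knockout libraries, too few to be tested. Of 17 primitive streak and mesoderm genes in the table only 5 could be tested, and 2 were raised and 1 lowered at least 2-fold (2 passed through the knockout libraries only). With loess offsets 1 was raised and 2 lowered. Wnt3, a ligand of the streak named after its values were seen, rose from 1.02 and 1.43 to 9.99 and 6.25 CPM (2.40, SE 0.34), while T (brachyury) fell from 37.0 and 30.5 to 6.77 and 5.90 CPM (-2.34, SE 0.20). Of 18 neural genes 8 were tested (2 through the knockout libraries only), and 5 were raised and 2 lowered at least 2-fold. Nefl, the light neurofilament chain, fell from 178 and 173 to 35.8 and 35.1 CPM (-2.29, SE 0.08). Of 7 tested fibroblast markers 5 were raised and 2 lowered at least 2-fold. Of the 7, 3 passed through the knockout libraries only and 1 through the wild-type libraries only. The summed level of the list was 234 and 240 CPM in wild-type and 134 and 136 CPM in the knockout libraries.

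Germline genes formed the second raised group. The 3 lists used were the piRNA pathway, which silences transposons in germ cells, meiotic chromosome and recombination proteins, and germ cell regulators and testis genes. In the piRNA list 15 of 16 genes were tested (6 through the knockout libraries only), 13 were raised at least 2-fold and 0 were lowered that far. Asz1, an ankyrin repeat protein of the piRNA machinery, rose from 0.729 and 0 to 38.0 and 32.6 CPM (5.55, SE 0.29, adjusted p = 1.80e-21). Tdrd1, a tudor protein that binds PIWI proteins, rose from 0.438 and 0.573 to 27.4 and 27.8 CPM (4.94, SE 0.28, adjusted p = 2.48e-20). Tdrd12, another tudor protein, fell from 116 and 115 to 70.6 and 70.1 CPM (-0.71, SE 0.07). In the meiotic list 19 of 22 were tested (1 through the knockout libraries only), and 11 were raised and 1 lowered at least 2-fold. Stra8, the retinoic acid target that gates entry into meiosis, rose from 5.40 and 6.59 to 144 and 150 CPM (4.52, SE 0.11, adjusted p = 8.47e-34). Stag3, a meiotic cohesin subunit, fell from 89.3 and 84.8 to 31.3 and 30.5 CPM (-1.48, SE 0.10). Among 16 tested germ cell regulators and testis genes (4 through the knockout libraries only), 9 were raised and 0 lowered at least 2-fold. Mageb4, an X-linked testis gene, rose from 1.60 and 0.716 to 71.5 and 83.3 CPM (5.64, SE 0.20). Sohlh1, a helix-loop-helix factor of early germ cells, had no count in wild-type and 15.8 and 17.4 CPM in the knockout libraries, at least 76.3-fold higher.

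Genes of the two-cell-like state, a rare condition of stem cell cultures that resembles the early embryo, were mostly raised. Of 14 tested (1 through the knockout libraries only), 12 were raised at least 2-fold and 0 lowered, with a median log2 fold change of 1.48. Zfp352 rose from 3.21 and 2.15 to 21.9 and 19.1 CPM (2.77, SE 0.24) and Tdpoz4 from 2.33 and 1.29 to 13.9 and 17.0 CPM (2.84, SE 0.28). The Zscan4 and Usp17l members of this list are near-identical copies, and how reads were shared among them is uncertain.

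Core pluripotency genes stayed within 2-fold. Pou5f1 had 272 and 277 CPM in wild-type and 488 and 505 CPM in the knockout libraries (0.85, SE 0.03, adjusted p = 4.13e-26), but did not pass with the wild-type pair counted as 1 (adjusted p = 0.116). Nanog had 130 and 127 against 203 and 212 CPM (0.69, SE 0.05, adjusted p = 3.21e-16, and 0.0221 with the pair counted as 1). Sox2 was not called, at 81.1 and 87.5 against 78.0 and 73.2 CPM (-0.16, SE 0.08, adjusted p = 0.0675). Of 18 naive pluripotency genes, 1 was raised and 2 lowered at least 2-fold. Dppa3, also expressed in germ cells, rose from 25.1 and 26.2 to 150 and 155 CPM (2.55, SE 0.08), and the lowered genes were the Krüppel-like factors Klf5 (-1.25, SE 0.09) and Klf2 (-1.23, SE 0.15). Of 10 tested genes of formative and primed pluripotency 5 were raised and 3 lowered at least 2-fold. Of the 10, 3 passed through the knockout libraries only and 1 through the wild-type libraries only. The median of this list changed sign with loess offsets, from 0.97 to -0.59. Otx2, a homeobox factor of the epiblast, rose from 4.38 and 5.30 to 32.2 and 24.3 CPM (2.46, SE 0.20), and Lef1, a WNT-responsive factor, fell from 68.7 and 67.3 to 16.4 and 16.7 CPM (-2.01, SE 0.12).

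**Figure D2:**
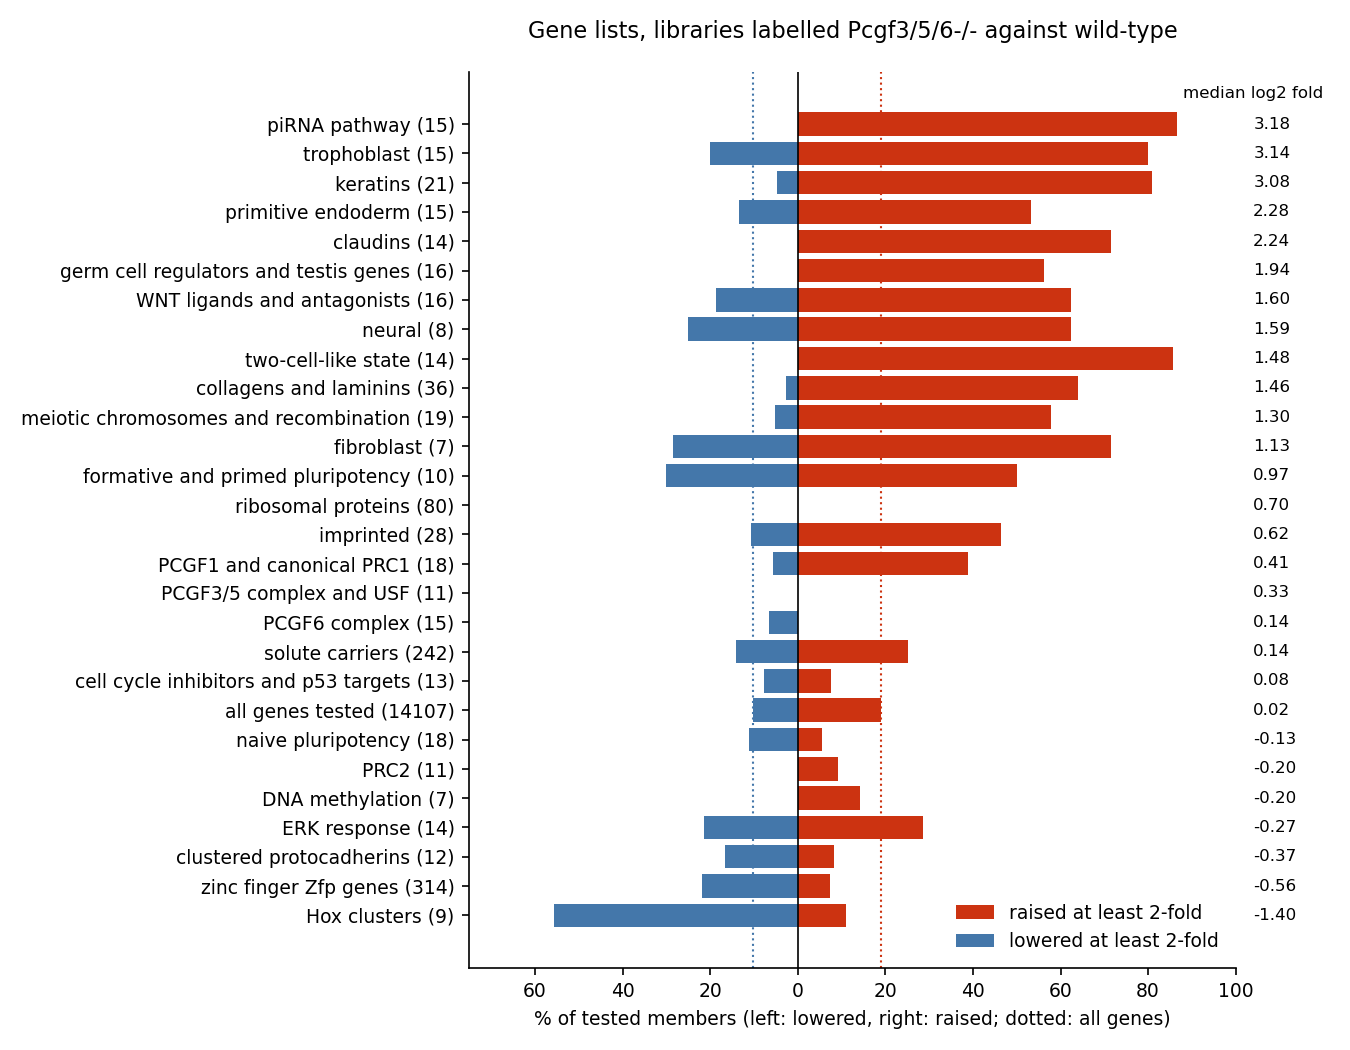
Share of the tested members of each list with at least 7 tested genes (number tested in parentheses) raised at least 2-fold to the right and lowered at least 2-fold to the left, with the median log2 fold change beside each bar and dotted lines at 19.0% and 10.1%, the shares over all genes tested. The piRNA, trophoblast and keratin lists have the highest medians (3.18, 3.14 and 3.08), and of the lists drawn the Hox list has the lowest (-1.40).

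Signalling genes moved in both directions. Among 16 tested WNT ligands and antagonists 10 were raised and 3 lowered at least 2-fold (6 passed through the knockout libraries only), and 5 were raised at least 2-fold with loess offsets. Wnt7b rose from 1.75 and 1.43 to 28.7 and 25.3 CPM (3.78, SE 0.24) and Wnt9a from 0.438 and 1.58 to 21.9 and 17.7 CPM (3.84, SE 0.30). Axin2, a negative regulator and common readout of WNT signalling, fell from 78.0 and 79.8 to 14.8 and 10.4 CPM (-2.60, SE 0.13). Among 14 tested ERK response genes (2 through the knockout libraries only), 4 were raised and 3 lowered at least 2-fold. Fos, an immediate early gene, had 1 count over both wild-type libraries and 23.5 and 20.1 CPM in the knockout libraries, a ratio of 303 with an exact 95% counting interval of 53.4 to 12054. Spry2, an ERK feedback inhibitor, fell from 76.9 and 75.2 to 33.8 and 27.4 CPM (-1.29, SE 0.10).

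The 6 largest decreases among named genes were 2700046A07Rik, the Y-linked Uty, Osm, Cdx1, Tfap2a and Glb1l. The gene 2700046A07Rik had 19.4 and 20.5 CPM in wild-type and 1 count over both knockout libraries, 0.838% of the wild-type level with an exact 95% counting interval of 0.0211 to 4.71%. Glb1l, a relative of beta-galactosidase, fell from 29.9 and 26.6 to 0.322 and 1.74 CPM (-4.35, SE 0.31). Plagl1, an imprinted zinc finger factor, fell from 99.2 and 102 to 4.51 and 5.90 CPM (-4.18, SE 0.15, adjusted p = 2.41e-28). Cdx1, a caudal homeobox factor, fell from 54.0 and 60.4 to 2.58 and 2.08 CPM (-4.39, SE 0.21). Osm, the cytokine oncostatin M of the same family as leukaemia inhibitory factor, fell from 34.9 and 30.5 to 0.967 and 1.39 CPM (-4.39, SE 0.28). Of 28 tested imprinted genes (5 through the knockout and 1 through the wild-type libraries only), 13 were raised and 3 lowered at least 2-fold. Of 9 tested Hox genes (1 through the knockout and 4 through the wild-type libraries only), 1 was raised and 5 lowered at least 2-fold. Hoxa7 went from 11.8 and 10.7 to 1.93 and 1.39 CPM (-2.49, SE 0.33). Of 314 tested Zfp genes, mostly DNA-binding zinc finger proteins, 23 were raised and 69 lowered at least 2-fold, shares below and above the background, with a median of -0.56. The Y-linked gene Uty fell from 51.3 and 46.0 to 2.26 and 1.39 CPM (-4.45, SE 0.23) and Ddx3y from 106 and 101 to 16.4 and 22.2 CPM (-2.41, SE 0.11). In the Pcgf6-/- and Pcgf3/5-/- lines both Y-linked genes lay between 0 and 0.575 CPM, so their level differs between the lines of the table. Ribosomal protein genes were raised together but by less than 2-fold: 75 of 80 passed in the fit of the 4 libraries, and 1 with the wild-type pair counted as 1 in all 14.

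Most Polycomb subunit genes were not called changed by 2-fold or more. Of 15 PCGF6 complex genes, 0 were raised and 1 lowered at least 2-fold. That gene was Mga, the T-box and MAX-binding scaffold of the complex, which fell from 231 and 220 to 91.8 and 91.3 CPM (-1.30, SE 0.06, adjusted p = 2.81e-24) and has a PCGF6 peak at its promoter. Of 11 genes of the PCGF3/5 complex and the USF factors, 0 passed at 2-fold in either direction. Auts2, a subunit linked to activation of transcription, rose from 21.2 and 17.5 to 36.7 and 38.9 CPM (0.95, SE 0.14). Of 18 genes of PCGF1 and canonical PRC1, 7 were raised and 1 lowered at least 2-fold. Scml2, an X-linked germline Polycomb protein, rose from 2.04 and 1.58 to 23.8 and 24.3 CPM (3.47, SE 0.25). Pcgf1 fell from 67.5 and 62.2 to 26.4 and 34.4 CPM (-1.09, SE 0.11). Of 11 PRC2 genes Phf19, a Polycomb-like subunit, was raised at least 2-fold, from 0.438 and 0.859 to 15.1 and 8.68 CPM (3.56, SE 0.35).

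The changes were then set against wild-type peaks within 2.5 kb of an annotated gene start. Of the tested genes, 13830 could be placed in the annotation, and 2152 had a RING1B, 1081 a PCGF6 and 189 a PCGF3 peak. A further 1298, 218 and 7 bound genes were too low to be tested. Among promoters with none of the 3 peaks, 13.7% were raised and 10.4% lowered at least 2-fold (1511 and 1152 of 11032, median -0.07). With RING1B alone, 50.5% were raised and 7.88% lowered (801 and 125 of 1586, median 1.02). With PCGF6 and RING1B, whatever PCGF3, 44.4% were raised and 4.28% lowered (249 and 24 of 561, median 0.75). With PCGF6 and no RING1B, 12.7% were raised and 6.92% lowered (66 and 36 of 520, median 0.01). The raised share was higher in both classes with RING1B. With only the peaks above the median −log10 q of each list, genes regroup, since a gene whose RING1B peak is weaker then counts as having none. In that grouping 20.6% of genes with PCGF6 and no RING1B (87 of 422) and 15.8% of genes with none of the 3 were raised at least 2-fold. The 87 exceed the 66 raised with all peaks, so they include genes with a weaker RING1B peak. Binding has no replicate, and these shares carry no test. Of the 1868 wild-type PCGF6 peaks, 479 (25.6%) overlap a PCGF6 peak called in Pcgf6-/-. Of the 223 wild-type PCGF3 peaks, 20 (8.97%) overlap a PCGF3 peak called in Pcgf3/5-/-. How specific these peaks are was not tested.

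**Figure D3:**
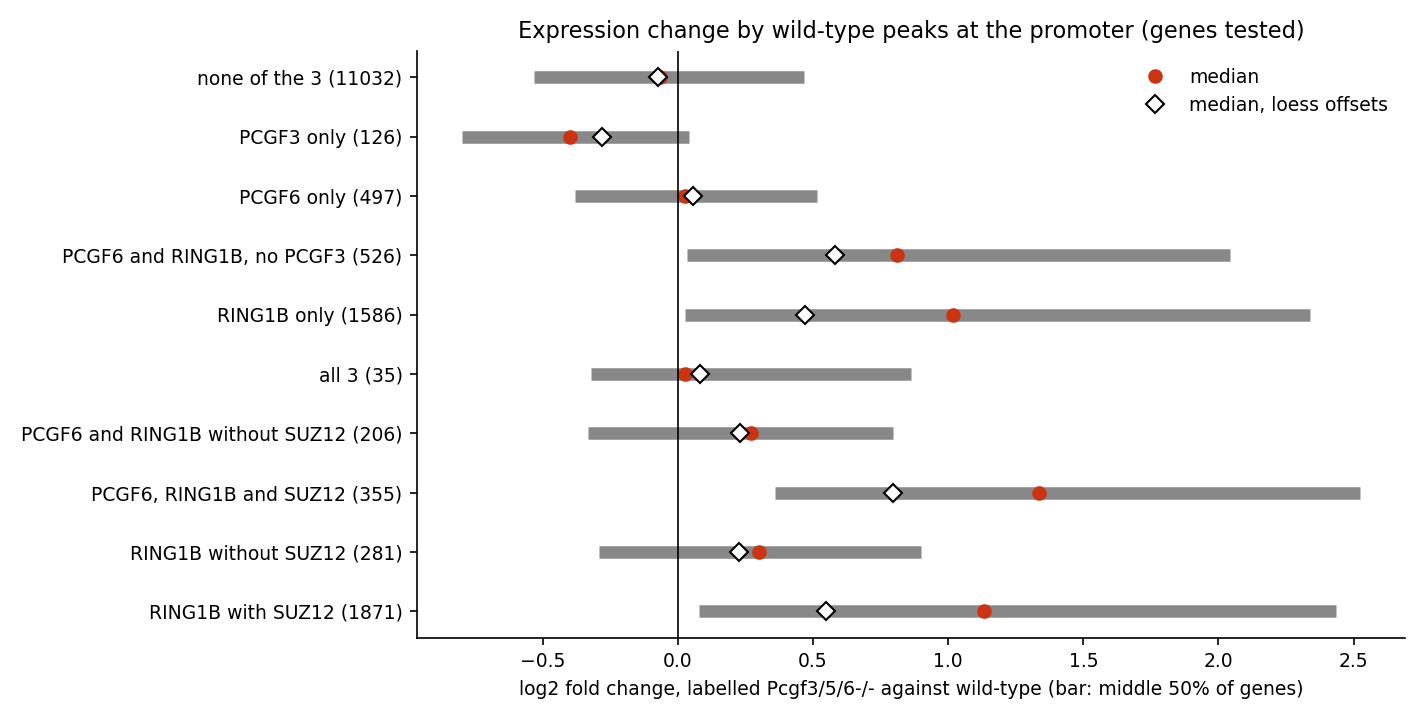
Log2 fold change of tested genes by wild-type peaks within 2.5 kb of a start (number of genes in parentheses), with the range from the lower to the upper quartile as a bar, the median as a filled circle and the median with loess offsets as an open diamond. RING1B-bound classes with SUZ12 lie to the right (medians 1.13 and, with PCGF6, 1.34), and promoters with PCGF3 only lie to the left of 0 (median -0.40).

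RING1B-bound genes are scarcer transcripts, and scarce transcripts rose without any peak too, so the shares were read within the 4 bins of mean abundance. In the lowest bin 63.5% of RING1B-bound genes and 45.3% of genes with none of the 3 peaks were raised at least 2-fold. In the second bin these shares were 41.5% and 13.8%, in the third 20.8% and 3.33%, and in the highest 9.32% and 0.801%. In the lowest bin 543 of the 1139 bound and 724 of the 2245 unbound genes passed the filter through the knockout libraries only, which fixes their direction, so that bin supports no comparison. In the second bin 15 bound and 30 unbound genes passed that way, in the third 3 and 2 and in the highest 0 and 0, and in these 3 bins the bound genes had the higher share. With loess offsets the median of RING1B-only genes was 0.47 and that of PCGF6 and RING1B genes 0.56, both still above the -0.07 of unbound genes.

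**Figure D4:**
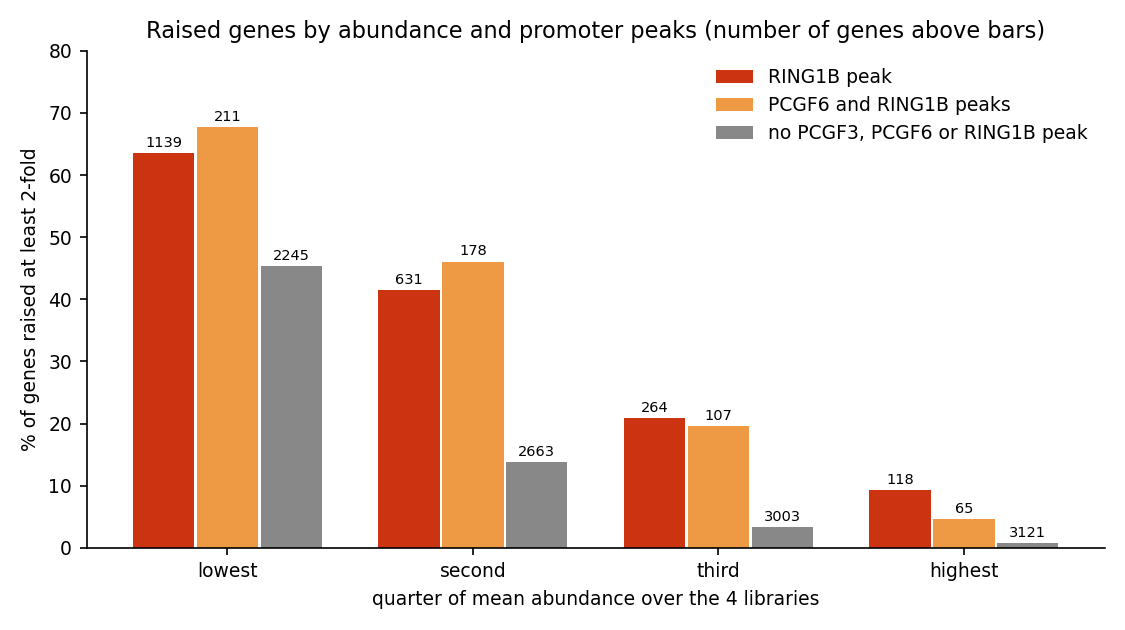
Percent of genes raised at least 2-fold (vertical axis) in each of 4 bins of mean abundance, for promoters with a RING1B peak, with PCGF6 and RING1B peaks, and with none of the 3 peaks, with the number of genes above each bar. Raised shares fall with abundance in all 3 classes, from 63.5% to 9.32% with RING1B and from 45.3% to 0.801% without any peak.

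Raised shares also differed by SUZ12. Over all RING1B-bound genes, 52.7% were raised at least 2-fold with SUZ12 and 23.1% without. Where PCGF6 and RING1B were joined by SUZ12, 58.0% of genes were raised and 3.66% lowered at least 2-fold (206 and 13 of 355, median 1.34). Without SUZ12 the shares were 20.9% and 5.34% (43 and 11 of 206, median 0.27). The genes with SUZ12 are scarcer (median log2 CPM 3.20 against 5.73), and 96 of the 355 but 6 of the 206 passed the filter through the knockout libraries only. Within the second abundance bin, where 2 and 0 genes passed that way, 53.3% of 120 were raised with SUZ12 and 31.0% of 58 without, and within the third bin 34.9% of 43 and 9.38% of 64. Dab2, Plekhg4 and Tdrd1, the largest increases among promoters with PCGF6 and RING1B, have SUZ12 as well. Plekhg4 had 3 counts over both wild-type libraries and 23.8 and 25 CPM in the knockout libraries, a ratio of 113 with an exact 95% counting interval of 37.8 to 552. The largest decreases in the class were Hoxa7, Nefl and Cdx2, and all 3 kept a RING1B peak in the triple knockout. Among genes given here with values, Igf2, Glb1l, Pcgf5, Tfap2a, Gata3, Gata6, Phf19, Mageb4, Hnf4a, Nefl, Wnt7b, Axin2, Hoxa7, Krt10, Cpeb1 and Plekhg4 overlap the span of an annotated gene on the opposite strand. Sox2, H19, Igf2, Hnf4a, Mageb4, Frmd4b and Gata3 overlap one on the same strand. Reads from a shared stretch cannot be told apart, and whether exons overlap was not checked.

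Among the 3 germline lists, 20 tested genes had PCGF6 and RING1B at the promoter, and 15 of them were raised and 1 lowered at least 2-fold (median 2.91). With PCGF6 alone 5 of 9 were raised, and with neither 11 of 17 were raised (median 1.83). All 6 piRNA genes with both peaks (Ddx4, Mael, Tdrd1, Tdrkh, Mov10l1 and Piwil2, named for having both) were raised at least 2-fold. Ddx4, the germ cell helicase whose PCGF6 summit sequence is given above, rose from 16.5 and 15.5 to 246 and 221 CPM (3.84, SE 0.08), and Mov10l1, a piRNA helicase, from 12.3 and 10.3 to 173 and 169 CPM (3.87, SE 0.09). Asz1, Sohlh1 and Mageb4 rose without a PCGF3, PCGF6 or RING1B peak. All 13 tested two-cell-like genes that could be placed lacked both PCGF6 and RING1B, and 12 were raised at least 2-fold. Of 15 trophoblast genes, 13 had RING1B, 4 of them with PCGF6.

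PCGF3-bound promoters had more decreases than increases. Of 189 tested genes with a PCGF3 peak, 5.29% were raised and 15.3% lowered at least 2-fold (10 and 29), with a median of -0.22. For the 126 with PCGF3 only, 1.59% were raised and 17.5% lowered at least 2-fold (median -0.40, and -0.28 with loess offsets). At any size, 26 of these 126 were raised (20.6%) and 72 lowered (57.1%). These genes are abundant (median log2 CPM 6.51), and abundant genes without a peak were seldom raised too. In the third abundance bin 0 of 39 were raised and 17.9% lowered at least 2-fold, against 3.33% and 13.2% of genes with none of the 3 peaks. In the highest bin 0 of 58 were raised and 12.1% lowered, against 0.801% and 3.20%. PCGF3 and USF1 share sites: 205 of 223 PCGF3 peaks (91.9%, 95% Wilson interval 87.6 to 94.8%) overlap a USF1 peak. The 3160 tested genes with USF1 and no PCGF3 had 12.5% raised and 10.7% lowered at least 2-fold and a median of -0.07. They include genes with RING1B or PCGF6, and the rest of them also belong to the genes with none of the 3 peaks. Those sets overlap and cannot be compared as separate ones. Of the 223 PCGF3 peaks 49 overlap RING1B (22.0%) and 75 overlap PCGF6 (33.6%). A PCGF6 peak called in Pcgf6-/- overlaps 53 of the 223 (23.8%), so the overlap with PCGF6 may be partly unspecific, which was not tested.

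Frmd4b, a scaffold protein and the largest decrease among PCGF3-bound genes, went from 72.2 and 73.9 to 6.77 and 14.6 CPM (-2.75, SE 0.15, adjusted p = 4.27e-21). Ankrd12, an ankyrin repeat protein with PCGF3 and USF1 but neither PCGF6 nor RING1B, went from 86.6 and 86.9 to 16.1 and 17.0 CPM (-2.36, SE 0.11, adjusted p = 7.06e-23). Hoxa7, given above, lay between them (-2.49). The 3 largest increases all carry PCGF6 and RING1B beside PCGF3. They are Rbm46, a germ cell RNA-binding protein (1.75 and 1.86 to 41.2 and 41.6 CPM, log2 fold change 4.24, SE 0.21), the uncharacterised 0610040J01Rik (6.42 and 6.44 to 72.5 and 65.9 CPM, 3.35, SE 0.15), and Cpeb1, a polyadenylation factor of oocytes (3.06 and 3.72 to 20.3 and 24.3 CPM, 2.57, SE 0.23). Of the 35 tested genes with all 3 peaks, 7 were raised and 3 lowered at least 2-fold.

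The levels of the named genes were compared between Pcgf3/5/6-/- and the lines that lack part of these genes, in the fit of 14 libraries. The contrasts with Pcgf6-/- and with Pcgf3/5-/- share the triple knockout libraries and are given side by side. Over all 15464 genes tested, 19.0% were higher in the libraries labelled Pcgf3/5/6-/- than in Pcgf6-/- and 27.1% higher than in Pcgf3/5-/-. Lower genes numbered 4171 of the 15464 against Pcgf6-/- and 3815 against Pcgf3/5-/-, and counts of lower list members below should be read beside these. Of the 45 named genes raised at least 2-fold over wild-type, 23 were also higher than in Pcgf6-/-, 7 were lower and 15 were not called. Against Pcgf3/5-/-, 43 were higher, 0 lower and 2 not called. These genes were chosen for being high in the same libraries, so the counts describe them only.

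Of the 15 trophoblast genes tested in this fit, 13 were higher and 1 lower in the libraries labelled Pcgf3/5/6-/- than in Pcgf6-/-, and 12 were higher and 3 lower than in Pcgf3/5-/-. Of 30 imprinted genes, 13 were higher and 5 lower than in Pcgf6-/-, and 13 were higher and 11 lower than in Pcgf3/5-/-. Igf2 had 21.7 and 21.1 CPM in Pcgf6-/-, 0.802 and 0.575 CPM in Pcgf3/5-/- and 274 CPM in both triple knockout libraries, on the scaling of the 14 libraries (3.65, SE 0.15, and 7.99, SE 0.23, above them, adjusted p = 6.93e-09 and 4.81e-11). Plac1 had 14.4 and 13.3 CPM in Pcgf6-/-, 0.401 and 0.767 CPM in Pcgf3/5-/- and 144 and 152 CPM in the triple knockout (3.38, SE 0.17, and 7.33, SE 0.26, above them). Germline genes were rarely higher than in Pcgf6-/-. Of 20 meiotic genes 1 was higher and 12 lower, of 15 piRNA genes 0 were higher and 5 lower, and of 17 germ cell and testis genes 3 were higher and 9 lower. Against Pcgf3/5-/-, 12, 10 and 12 genes of these lists were higher and 4, 2 and 1 lower. Tdrd1 had 26.1 and 25 CPM in Pcgf6-/- and 26.9 and 27 CPM in the triple knockout, a difference of 0.07 (SE 0.18, adjusted p = 0.767). Stra8 differed by 0.15 (SE 0.10, adjusted p = 0.247) and Rbm46 by -0.41 (SE 0.16, adjusted p = 0.0539) from Pcgf6-/-. Asz1 was lower than in Pcgf6-/-, at 37.3 and 31.8 against 127 and 142 CPM (-1.94, SE 0.21, adjusted p = 1.01e-05), and so was Zfp352, at 21.5 and 18.6 against 111 and 112 CPM (-2.45, SE 0.20). Among PCGF3-bound genes, Ankrd12 had 36.2 and 41.4 CPM in Pcgf6-/-, 76.9 and 79.8 CPM in Pcgf3/5-/- and 15.8 and 16.6 CPM in the triple knockout (-1.24, SE 0.13, and -2.25, SE 0.12, below them). Frmd4b did not differ detectably from Pcgf6-/- (0.05, SE 0.31, adjusted p = 0.918).

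The peak lists of the triple knockout were compared with those of wild-type. RING1B had 5454 wild-type peaks, and 2552 of them (46.8%, 95% Wilson interval 45.5 to 48.1%) overlapped 1 of the 3068 peaks of the library labelled Pcgf3/5/6-/-. Peaks with PCGF6 were overlapped less often (285 of 828, 34.4%, interval 31.3 to 37.7%) than those without (2267 of 4626, 49.0%, interval 47.6 to 50.4%). The shares also differed by SUZ12: with PCGF6 and SUZ12, 285 of 569 were overlapped (50.1%), and with PCGF6 but no SUZ12, 0 of 259, which allows a share of up to 1.46% by the Wilson method. With SUZ12 and no PCGF6, 2235 of 4311 were overlapped (51.8%), so among peaks with SUZ12 the shares with and without PCGF6 were close. Peaks with neither PCGF6 nor SUZ12 were overlapped in 32 of 315 cases, with a median −log10 q of 9.06 and a median width of 406 bases. Peaks with PCGF6 and no SUZ12 were weaker and narrower than those with both, with a median −log10 q of 11.5 against 41.1 and a median width of 481 against 1434 bases. Among RING1B peaks below the median −log10 q, 11 of 144 with PCGF6 and SUZ12 (7.64%) and 397 of 2041 with SUZ12 and no PCGF6 (19.5%) were overlapped, as were 30 of 311 with neither (9.65%) and 0 of 231 with PCGF6 and no SUZ12. The part of peak strength in this difference was not tested further. Each list comes from 1 sample, and the number of peaks moves with how much was called.

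**Figure D5:**
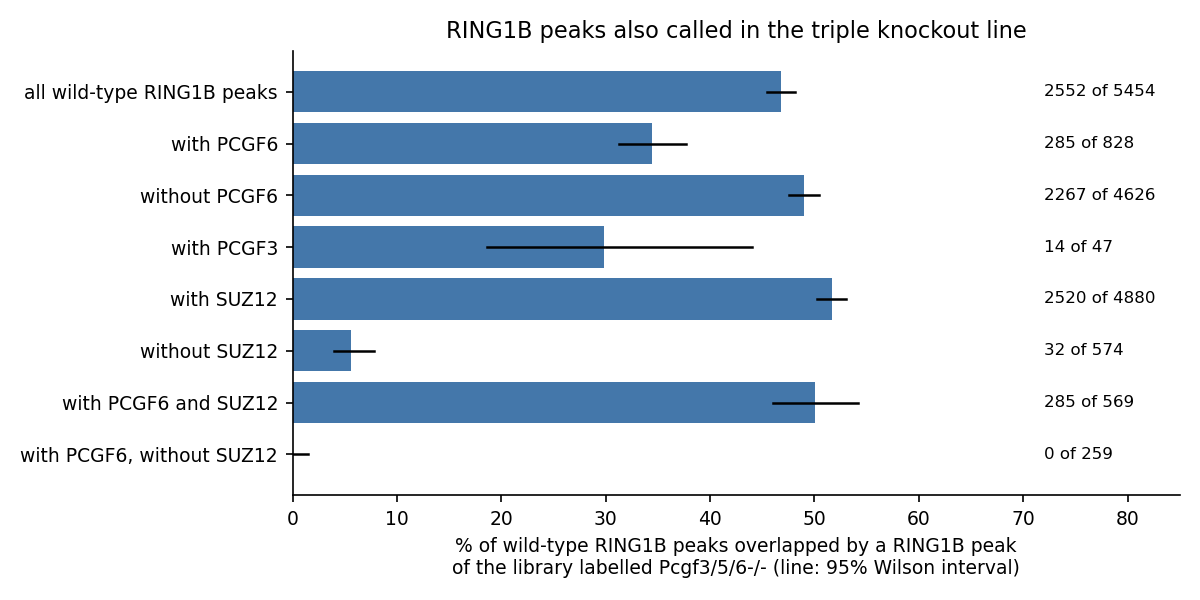
Percent of wild-type RING1B peaks overlapped by at least 1 base of a RING1B peak of the library labelled Pcgf3/5/6-/-, by the other wild-type peaks they overlap, with 95% Wilson intervals as lines and counts at the right. Peaks with PCGF6 and SUZ12 stand at 50.1%, and those with PCGF6 and no SUZ12 at 0 of 259.

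At promoters, loss of the RING1B peak and a rise of the gene did not go together one to one. Genes whose RING1B peak was still called in the triple knockout were raised at least 2-fold in 49.6% (424 of 855), and genes whose peak was not called in 48.3% (627 of 1297). The first group was scarcer (median log2 CPM 2.59 against 3.47). In it 281 genes, and in the second 280, passed the filter through the knockout libraries only, which fixes their direction. The raised shares of these groups are therefore not on equal terms. With loess offsets 243 of 855 and 456 of 1297 were raised at least 2-fold, and the medians were 0.28 and 0.60, from 0.99 and 0.92. At the 74 tested genes with a RING1B peak in the triple knockout only, 3 were raised and 38 lowered at least 2-fold (4.05% and 51.4%), with a median of -1.04. Of the 74, 7 passed the filter through the wild-type libraries only and 1 through the knockout libraries only, which fixes their direction. For SUZ12, 12 were raised and 76 lowered of 207 genes with a peak in the triple knockout only (median -0.61). Genes that lost a SUZ12 peak were raised in 56.3% and lowered in 2.25%, and genes that kept it in 48.1% and 10.1%. Cdx1 is among the genes with RING1B only in the triple knockout. SUZ12 peaks of wild-type were overlapped in 4534 of 6473 cases, H3K27me3 peaks in 81.8% and H2AK119ub1 peaks in 88.0%. The H2AK119ub1 list held 1741 peaks over 1117472 bases in wild-type and 14353 over 18610327 bases in the triple knockout, so its gains cannot be separated from the amount called. The H3K27me3 list grew as well, from 8063 peaks over 6330377 bases to 14126 over 18171736 bases. The RING1B list shrank from 7470069 to 3811868 bases. Shares overlapped, and the genes classed as keeping or losing a peak, move with these amounts too. Among 225 genes that lost an H3K27me3 peak, 67.6% were raised and 1.33% lowered at least 2-fold (median 1.64), and among 1448 that kept it 53.6% and 6.28% (median 1.17). Genes whose direction the filter fixes were not counted in the SUZ12 and H3K27me3 groups, so these shares may not be on equal terms either.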

How the data were processed

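RNA-seq libraries were made from poly-A RNA, per the labels' protocols. The authors deposited whole-number counts per gene symbol without normalization, and the submitters' processing notes name TopHat2 2.1.1, HTSeq 0.7.2, MACS2 2.1.1 and the build mm9 without saying what each was used for. The use of strand in counting is not given in the sources used here. Counts of the 2 wild-type and 2 Pcgf3/5/6-/- libraries were filtered with filterByExpr (a minimum count of 10, or 2.01 CPM), scaled with TMM and tested with edgeR 4.0.16 (quasi-likelihood, Benjamini-Hochberg over 14107 genes, threshold 0.05). Pcgf6-/- and Pcgf3/5-/- were compared in a fit of all 14 libraries (7 groups). Fold changes are on the log2 scale with a prior count of 2, and a group without counts was given a floor of 3. From the authors' deposited table of this comparison, the log2 fold change and adjusted p-value were used only to compare calls.

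The authors deposited 1 peak list per ChIP-seq sample, in narrowPeak format, which holds −log10 p-values and q-values. Lists were used as called. A gene was bound when a peak overlapped the 2.5 kb on either side of a start in GENCODE M1 (NCBIM37). Of 23377 symbols, 21001 matched directly, 1003 by an older symbol and 1373 not at all. Overlaps need 1 base, and intervals, which cover counting error only, are 95% Wilson or exact. The number of columns of values without a sample was 0.

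Genes named are the targeted genes, Pou5f1, Nanog and Sox2, and the largest called changes among genes whose log2 CPM averaged 2 or more and whose groups did not overlap: 6 raised and 6 lowered among all genes, 2 each way per list, and 3 each way among PCGF3-bound and among PCGF6- and RING1B-bound genes. Not all 115 are printed. The members, gene lists, comparisons and rules were chosen with earlier results of these data known. In counts simulated for this comparison over 12681 genes, of which 200 were changed, 78.0% of changes of 1 and 96.9% of changes of 2 on the log2 scale were recovered, with 9 false calls among 182. The simulated libraries were independent, had a larger dispersion than the fitted one and far fewer changed genes than were called here. These figures therefore do not give the error of the real fit. Alternatives covered scaling, filter, tool, the samples fitted, windows, peak subsets and libraries left out. The abundance bins within the PCGF3 and SUZ12 classes and the count of CACGTG by direction of change were added after the values were seen.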

Additional observations from a re-analysis of the deposited data

How the results depend on the processing

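The count of 10654 changed genes was 10653 with RLE factors, 9175 with DESeq2, 11549 without the filter, 9979 with loess offsets, 9341 with thinned libraries, 8241 in the fit of all 14 libraries and 10247 in a fit of the 4 libraries with the wild-type pair counted as 1, which was chosen after seeing the data. It was 4108 when a change of at least 2-fold was required. Leaving out 1 library in turn gave 9585 to 9760 genes. With a replicate block it was 10635. The replicate numbers give only 2 pairs, and the correlation of the differences between same-numbered libraries was 0.021. The wild-type libraries differ by no more than sampling noise, so this value cannot show whether the numbers mark a shared batch.

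With loess offsets, 32.2% of RING1B-only genes were raised and 13.4% lowered at least 2-fold, 6.95% of genes with PCGF6 and RING1B were lowered, and the Sox2 difference turned to 0.053. With only the peaks above the median −log10 q of each list, 1.96% of genes with PCGF6 and RING1B were lowered and 0.893% of PCGF3-bound genes were raised. In this setting a gene with a weaker RING1B peak counts as having none, and 20.6% of genes so classed as PCGF6 without RING1B were raised. Without PCGF6 and PCGF3 peaks also called in their own knockouts, the median of genes with PCGF6 and no RING1B was -0.0077. Requiring at least 0.5 of a wild-type peak to be covered gave 37.5% for RING1B, 65.9% for SUZ12 and 79.7% for H3K27me3. Only the peaks above the median −log10 q gave 49.9% for RING1B, 80.8% for H3K27me3 and 85.2% for H2AK119ub1. Apart from the regrouping of genes with weaker peaks, the causes of these shifts were not tested.

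Of 115 named genes, 99 kept their direction and call in every alternative run, 14 lost the call in at least 1 alternative and 2 gained one. Depth limits scarce genes: 3 counts are 0.430 to 1.04 CPM in a single library.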
